A study of Mus musculus with 5 samples.

Results

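Agt, Ace, Enpep, Agtr1a and Agtr2, 5 genes of the renin-angiotensin system, were followed through the cell classes of the fetal mouse lung. They were taken by gene symbol, 1 row each, from the 32285 genes of the count tables, and were chosen by their levels per cell class and their Het against KO differences in these same libraries. Single-cell RNA was measured with a droplet 3′ method in dissociated whole lungs of mouse embryos at E18.5, shortly before birth, with 1 library per embryo. The Het group was 2 Zswim8+/- embryos and the KO group was 3 Zswim8-/- embryos, so every lung carried at least 1 mutant Zswim8 allele and no wild-type lung was among them. ZSWIM8 is the substrate receptor of a ubiquitin ligase that triggers decay of microRNA-loaded Argonaute, and the comparison asks how lung cells differ when it is lost.

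The renin-angiotensin system makes a peptide hormone by successive cuts. Angiotensinogen, the product of Agt, is cut by renin to angiotensin I, and angiotensin-converting enzyme (Ace), which sits on the surface of lung endothelium, turns it into angiotensin II. Aminopeptidase A (Enpep) removes the first residue of angiotensin II to give angiotensin III. Agtr1a encodes the main receptor for the constricting and growth-promoting actions, and Agtr2 encodes a second receptor that is abundant in fetal mesenchyme. The lung is a classical site of angiotensin conversion because its capillary bed is large.

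The Agt stretch shown first codes for the hormone itself, since each step above acts on it. It lies in exon 2 of 5 of the transcript, on the minus strand of GRCm38 (chr8:124564450-124564479), and the capitals mark the 8 codons of angiotensin II, while the lower-case end holds the 2 codons for the residues that Ace removes.
Agt, angiotensin I coding stretch: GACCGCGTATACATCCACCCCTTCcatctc

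Of the 5 genes, 4 had a promoter window in the RefSeq table of GRCm38.p6, which reaches from 250 bases before the gene start to 50 bases after it, and 3 of these held the motif TATAA on the gene's own strand. They are shown because the motif lies at a like distance before the start in all 3, with the first T of the motif 30 bases before the start in Agt (chr8:124569719-124569748, minus strand), 29 in Ace (chr11:105967907-105967936, plus strand) and 26 in Agtr2 (chrX:21484586-21484615, plus strand). Starts here are those of the RefSeq table, which need not be the gene ends of the annotation given below: for Agtr2 the RefSeq start lies downstream, so the stretch falls inside the annotated gene span. The capitals mark TATAA.
Agt: ccaccccttgagTATAAataagcctgcttg
Ace: gtggctgggtttTATAAtccgcagggcggt
Agtr2: acagagcgaataTATAAgaaggaaaccaga
The motif was present on the gene's strand in 17.5% of all 32851 windows of 300 bases and on either strand in 24.9%. A later Ace window in the table (chromosome 11, 105974939 to 105975238) held no match, and the Enpep window held none on its own strand and 2 on the other. A match is a description of the letters and not a site of binding.

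The 5 genes lie apart in the genome (GRCm38): Agt on chromosome 8 (124556534 to 124569706), Ace on chromosome 11 (105967945 to 105989964), Enpep on chromosome 3 (129269175 to 129332720), Agtr1a on chromosome 13 (30336441 to 30382867) and Agtr2 on the X chromosome (21484544 to 21489164). All are annotated as protein-coding.

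Libraries held 56608582 to 93708304 UMIs (unique molecules), and 3051 to 4634 cells were kept in each, with a median of 9710 to 12678 UMIs per cell. The targeted gene did not separate the groups in the direction of the labels: Zswim8 was at 36.0 and 38.0 CPM in the Het libraries and at 38.0, 39.3 and 40.8 in the KO libraries. Since the mutant allele is not described in the sources used here and a mutant transcript can still be counted, this checks no label, and "KO" below means the library labelled so. From Y-linked and Xist UMIs, both Het embryos and KO 3 were male and KO 1 and KO 2 female. Libraries shared 0 to 7 barcodes in pairs. Cells were clustered without these 5 genes and the 33 other pathway and response genes described below among the variable genes. Where the genes are said to be kept in the clustering, both sets were allowed back. No class was named from the 5 genes. A class called X-like is a set of clusters that carried the markers of X. Red-cell barcodes, which should hold none of the 5 transcripts, gave the level of free RNA. Each gene was found in 0 to 1.18% of them, at 0 to 4.09 counts per 1000000 UMIs (CPM) and a median depth of 2328 to 2622 UMIs.

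Each gene had its own highest class in the lung, which ranks levels and not where most UMIs of a gene lay. Agt was highest in myofibroblast-like cells, Ace in capillary and arterial endothelium, Enpep in alveolar fibroblast-like cells, Agtr1a in pericyte-like cells and Agtr2 in adventitial fibroblast-like cells. Ligand, converting enzyme and receptors were thus highest in different classes of cell. All levels below are CPM of the UMIs summed over the cells of a class in a library, which do not correct for transcript length, so levels are compared between cells for 1 gene and not between genes. They are a description with no test, because these values chose the genes.

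**Figure D1:**
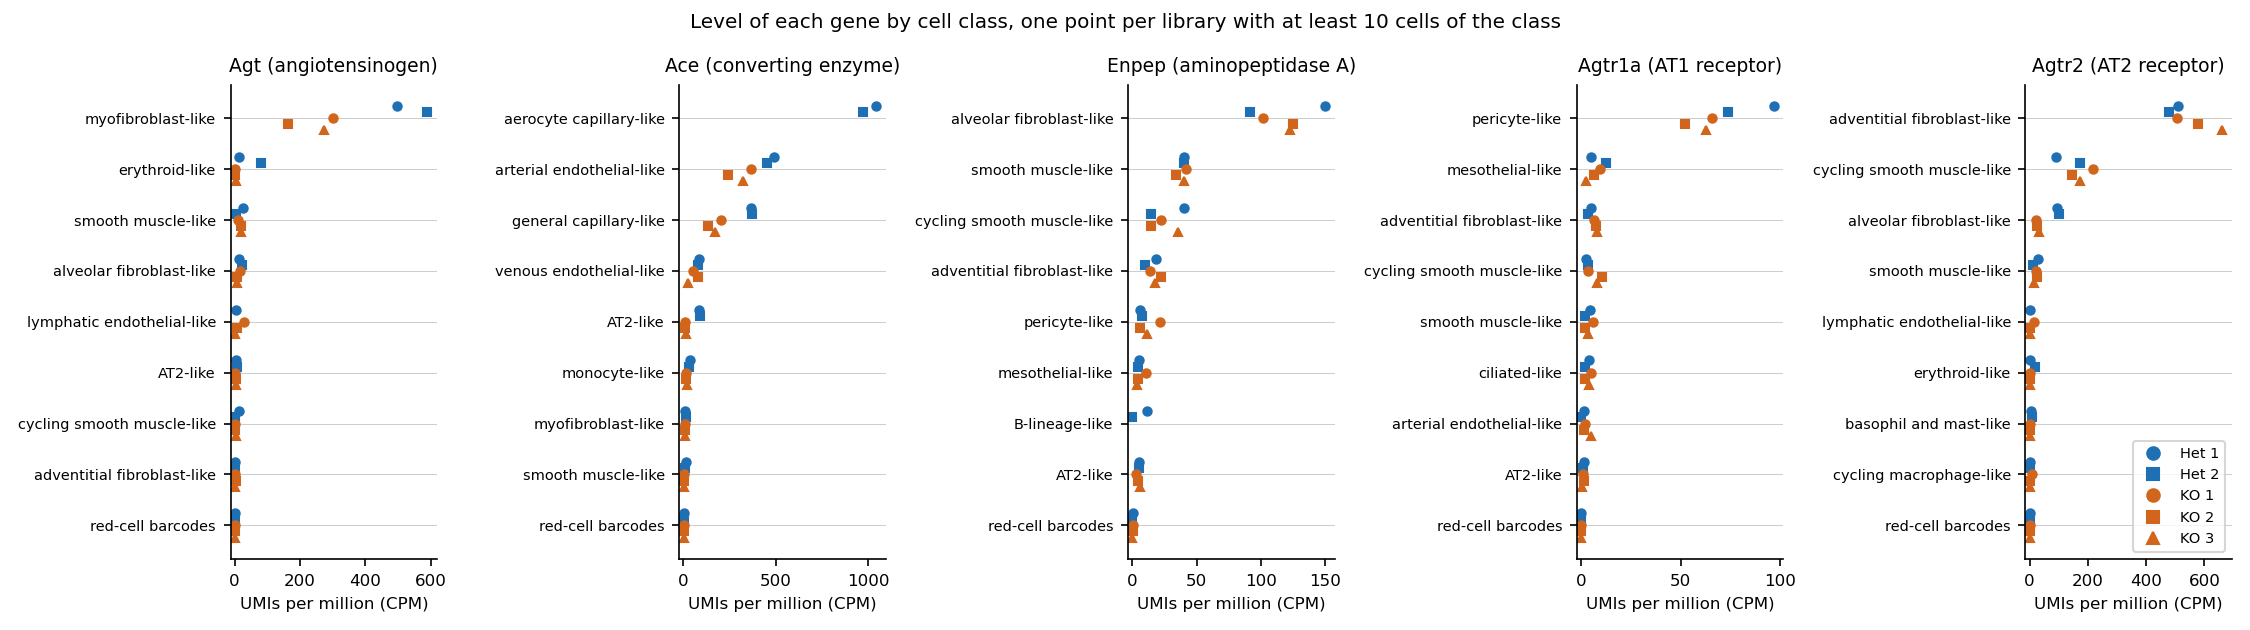
Level of each gene (CPM, x axis) in the 8 classes with the highest mean and in red-cell barcodes, with 1 point per library of at least 10 cells in the class, Het in blue and KO in orange. Each gene has 1 to 3 classes far above the rest, from Agt in myofibroblast-like cells (163 to 590.4 CPM) to Agtr1a in pericyte-like cells (52.3 to 96.7 CPM); the second place of Agt, erythroid-like cells, rests on 0 to 4 UMIs a library.

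The ligand gene Agt was counted mainly in myofibroblast-like cells, the Pdgfra-positive contractile cells of the future alveolar septa. Its level there was 497 and 590.4 CPM in the Het libraries and 303, 163 and 275 CPM in the KO libraries. Those values rest on 447 and 530 UMIs in 111 and 109 Het cells and on 237, 127 and 342 UMIs in 98, 68 and 119 KO cells. Both Het libraries lay above every KO library, with KO 2 the lowest. These cells held 76.9% and 82.9% of all Agt UMIs in the Het libraries and 51.6% to 73.4% in the KO libraries.

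Agt was the only 1 of the 5 genes that passed the low-count filter in the myofibroblast-like sums, and it fell by 1.12 (SE 0.18) on the log2 scale, with an adjusted p of 0.0019 in edgeR's quasi-likelihood test over 8268 genes. In that fit 1.63% of genes were called. The gene was chosen on this difference, so the call is a description and supports nothing, as are all calls on the 5 genes below. DESeq2 gave the same size of change (-1.12) with an adjusted p of 0.10, which is not a call. The change lay between -1.30 and -0.90 on leaving out single libraries, with adjusted p up to 0.011.

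Fewer myofibroblast-like cells held an Agt UMI in the KO libraries: 76.5%, 63.2% and 70.6% against 88.3% and 91.7% in Het. With each cell thinned to 3000 UMIs, the shares were 72.7% and 71.8% in Het and 48.9%, 30.9% and 53.8% in KO, over 110, 103, 90, 68 and 117 cells deep enough to be thinned. In red-cell barcodes the unthinned share was 0.0949% to 0.375%. Numbers of myofibroblast-like cells overlapped between the groups, at 2.40% and 2.68% of kept cells in Het and 2.10% to 3.21% in KO. The summed level of the 15 myofibroblast markers in these cells was also lower, at 7882 and 9507 CPM in Het and 5797 to 6921 CPM in KO, with 8 of 15 markers below and 3 above both Het values in every KO library. Their part in the Agt result was not tested.

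A further 67 cells, a small smooth muscle-like cluster led by Actg2, Cnn1 and Myh11, contractile genes of visceral and airway smooth muscle, also carried Agt. Its level was 262 and 58.0 CPM in the Het libraries and 57.5, 221 and 169 CPM in the KO libraries, over 7 to 19 cells each, and the groups overlapped. The other 596 smooth muscle-like cells held 6 Agt UMIs in all. Agt was at 6.26 to 22.5 CPM in alveolar fibroblast-like cells, where it did not pass the test (log2 change -0.80, adjusted p = 0.61 in edgeR). In AT2-like (alveolar epithelial) cells it was at 1.54 to 6.35 CPM, mostly in mixed cells, meaning cells in which 3 or more marker genes of a foreign lineage were detected.

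The enzyme gene Ace followed the endothelium. In aerocyte capillary-like cells, the Car4-positive capillary cells that appose the alveolar epithelium, it reached 1043.5 and 972 CPM in the Het libraries, over 60 and 41 cells. In the main clustering the KO libraries held 1, 1 and 0 such cells, so no KO level can be given for them. Arterial endothelial-like cells came next in the Het libraries at 491 and 451 CPM, then general capillary-like cells at 364 and 374 CPM. Venous endothelial-like cells lay far lower, at 26.2 to 87.2 CPM over all 5 libraries. The order of aerocyte, arterial and general capillary was the same in both Het libraries and no neighbours in it overlapped.

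**Figure D2:**
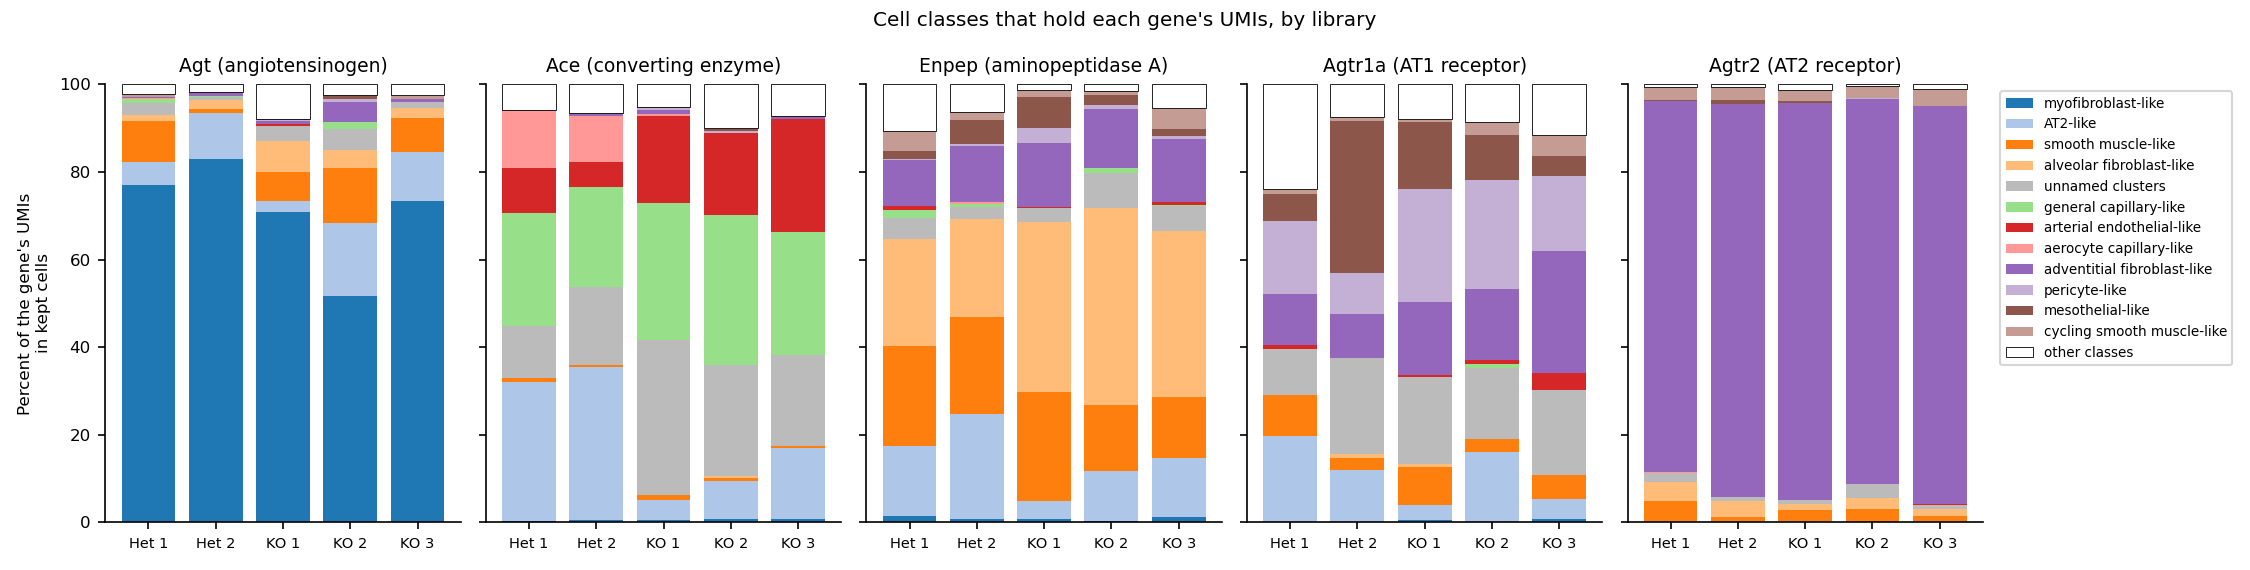
Percent of each gene's UMIs in kept cells (y axis) that each cell class holds, with 1 stacked bar per library. Adventitial fibroblast-like cells hold 84.9% to 90.9% of Agtr2 in every library, while the Ace bars differ between groups: aerocyte capillary-like cells hold 12.9% and 10.5% and AT2-like cells 31.9% and 35.0% in Het, against at most 0.328% and 16.2% in KO.

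In general capillary-like cells, the plasma-exchanging stem-like capillary type, Ace was at 364 and 374 CPM in the Het libraries and at 206, 133 and 173 CPM in the KO libraries. The UMIs were 780 and 610 in Het and 286, 292 and 333 in KO, and no KO library reached a Het library. Ace fell by 1.11 (SE 0.14) on the log2 scale, with an adjusted p of 0.00016 in edgeR over 9877 genes, of which 5.75% were called. With the aerocyte capillary-like cells added, the capillary-like level was 466 and 464 CPM against 207, 132 and 173 CPM. The fall was then 1.44 (SE 0.13), with an adjusted p of 4.3e-06 in edgeR over 9916 genes, of which 11.8% were called. Ace alone passed the low-count filter in both sums.

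All 18 alternatives kept this call in each of both sums, with log2 changes of -1.74 to -1.29 in capillary-like and -1.74 to -0.92 in general capillary-like cells. With doublets kept, no aerocyte class was named and both sums held the same cells, so the -1.74 in both ranges is the same fit. The share of general capillary-like cells with an Ace UMI was 85.7% and 83.8% in Het and 64.7%, 57.2% and 74.1% in KO. After thinning to 3000 UMIs it was 65.5% and 59.9% against 41.0%, 27.8% and 37.1%, and the red-cell barcodes stood at 0.227% to 1.18% unthinned. The number of general capillary-like cells overlapped, at 5.57% and 4.41% of Het and 5.11%, 5.56% and 4.27% of KO cells. Within these cells the summed level of the 12 aerocyte markers was 2779 and 2837 CPM in Het and 1856 to 2296 CPM in KO, with 7 of 12 markers lower in every KO library and Rprml at 0. The 13 general capillary markers, the class's own, summed to 4865 and 5123 CPM in Het and 3939 to 4871 CPM in KO, with 7 lower and 2 higher in every KO library. Car4 alone was at 90.6 and 63.7 CPM in Het and 2.88 to 10.9 CPM in KO. The border between the 2 capillary classes moved with the clustering. At a Leiden resolution of 2, general capillary-like cells were 173 and 116 in Het, in place of 258 and 179. In KO they were 138, 161 and 137, in place of 156, 180 and 166. Both capillary classes together then held 297 and 199 Het and 143, 167 and 149 KO cells. The part of this border and of these cells' makeup in the Ace result was not tested.

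Arterial endothelial-like cells gave the same order without a fit, since 1 Het library held only 15 of them. Ace was at 491 and 451 CPM in Het and 364, 241 and 325 CPM in KO, from 155 to 317 UMIs a library. The groups did not overlap, as was the case for 27% of the 7271 genes that passed the low-count filter in these cells. The 12 aerocyte markers summed to 1167 to 1205 CPM in Het and 1182 to 1667 CPM in KO arterial cells, with 1 marker lower and 2 higher in every KO library.

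**Figure D3:**
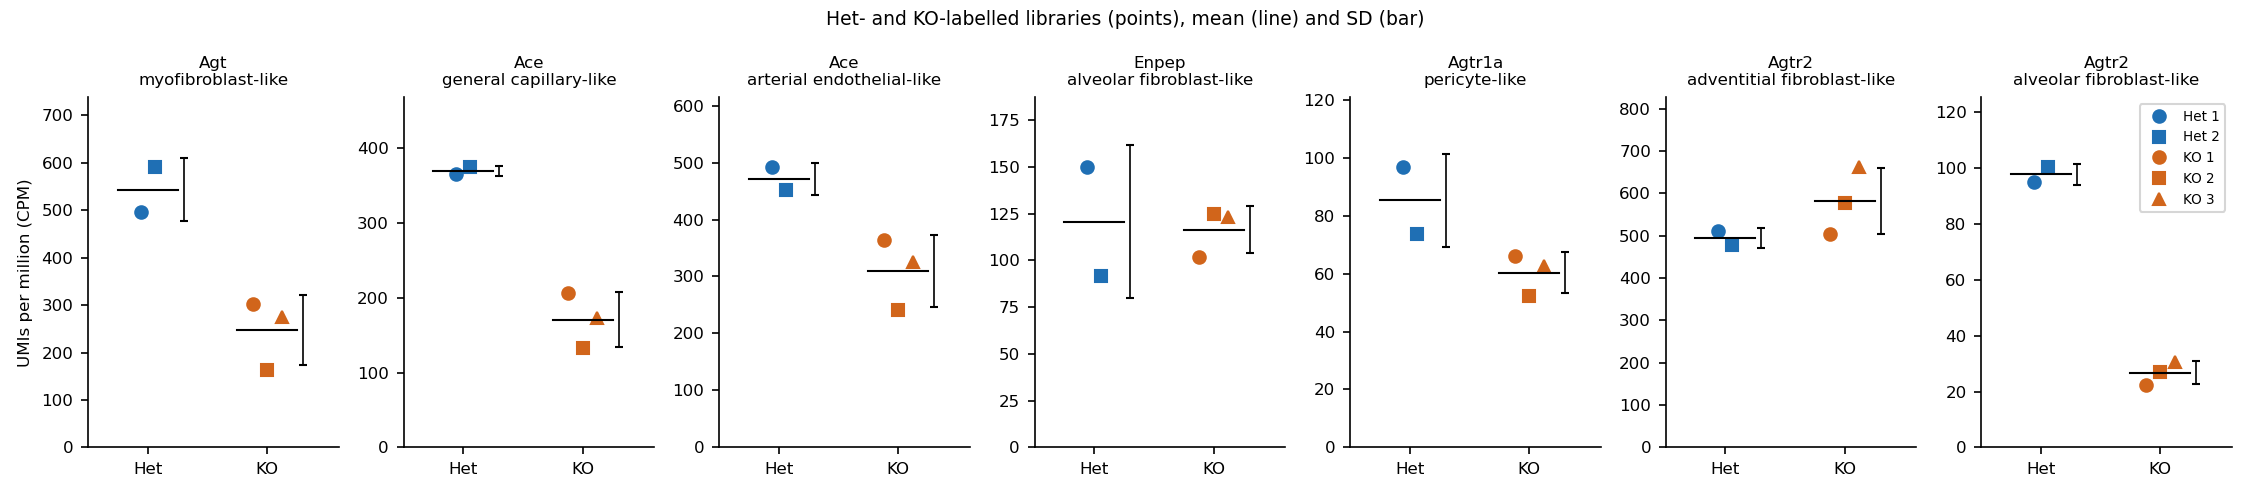
Level (CPM, y axis from 0) per library in the classes named above each panel, with points for libraries, lines for group means and bars for the SD (n = 2 Het, n = 3 KO). Agt and Ace lie lower in every KO library than in either Het library, Enpep in alveolar fibroblast-like and Agtr2 in adventitial fibroblast-like cells overlap, and the Agtr2 gap in alveolar fibroblast-like cells depends on the clustering.

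Monocyte-like cells carried a small amount of Ace, at 33.6 and 32.5 CPM in Het and 13.3, 13.3 and 18.53 CPM in KO. The UMIs were 104 and 91 in Het and 14, 42 and 59 in KO, and the groups did not overlap. The log2 change was -1.14 (SE 0.18), with an adjusted p of 0.054 in edgeR, just outside the threshold, in a fit where 0.117% of genes were called. All but 3 of these 310 UMIs lay in cells that were not mixed. The 6 endothelial lineage markers summed to 63.6 and 41.7 CPM in the Het and 31.9 to 38.0 CPM in the KO monocyte-like cells, and their part was not tested. The change in monocyte-like cells minus that in general capillary-like cells was -0.02 (SE 0.20, adjusted p = 0.996 in edgeR, with 0.463% of genes called), which does not show that both changed alike.

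AT2-like cells showed the widest Ace gap, at 86.7 and 87.6 CPM in Het against 8.06, 7.80 and 15.9 CPM in KO (log2 change -3.03, SE 0.24, adjusted p = 7.7e-05 in edgeR, with 18.4% of genes called). These UMIs lay almost wholly in mixed cells, 963 of 969 and 934 of 938 in the Het libraries. In AT2-like cells that were not mixed, Ace was at 1.38 and 1.19 CPM in Het and 0.376 to 0.825 CPM in KO, no higher than the highest level of the red-cell barcodes. The 6 endothelial markers in AT2-like cells summed to 1319 and 1406 CPM in Het and 236 to 362 CPM in KO, all 6 lower in every KO library. Their part in the Ace result was not tested.

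Summed over all kept cells, Ace was at 49.0 and 43.7 CPM in Het and 22.8, 16.6 and 18.3 CPM in KO. It fell by 1.30 (SE 0.15) on the log2 scale, with an adjusted p of 0.021 in edgeR over 17723 genes. It was the 1 gene of 5 called there, and 4.03% of all genes tested were called. Over all cells, fewer cells of a type and less RNA per cell cannot be told apart. Without mixed cells the change was -1.0003 with an adjusted p of 0.055. The call was also lost with sex as a covariate (adjusted p = 0.16), in male embryos only (0.097), with the replicate number as a block (0.10), and without Het 1 (0.16), Het 2 (0.14) or KO 3 (0.067), all as adjusted p, with changes of -1.39 to -1.21.

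Enpep, which trims angiotensin II, marked the alveolar fibroblast-like cells, the lipid-handling interstitial fibroblasts of the alveolar wall. Its level was 149.7 and 91.7 CPM in the Het libraries and 102, 125 and 123 CPM in the KO libraries. The values rest on 88 and 53 UMIs in Het and 145, 162 and 216 UMIs in KO, and the KO values lay between the 2 Het values. The log2 change was -0.04 (SE 0.19), with an adjusted p of 0.98 in edgeR, in a fit that called 0.897% of 9141 genes. Its sign turned in 4 of 19 alternatives, with values of -0.37 to 0.36, and 0 of them were called.

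Smooth muscle-like cells were the next class for Enpep, at 40.3 and 40.7 CPM in Het and 42.1, 34.0 and 40.0 CPM in KO, a spread of a few CPM. The log2 change there was -0.05 (SE 0.16, adjusted p = 0.96 in edgeR). Cycling smooth muscle-like cells (14.5 to 40.6 CPM), adventitial fibroblast-like cells (9.98 to 22.6 CPM) and pericyte-like cells (6.03 to 22.0 CPM) followed and overlapped in turn. AT2-like cells, at a Het mean of 5.21 CPM, still held 27 and 33 Enpep UMIs in mixed cells and 31 and 23 in other cells. In KO these were 8, 22 and 54 in mixed and 7, 19 and 23 in other AT2-like cells. Over all kept cells Enpep was at 5.80 and 3.83 CPM in Het and 9.27, 7.06 and 8.85 CPM in KO, without overlap, and did not pass the test in edgeR (log2 change 0.77, SE 0.22, adjusted p = 0.10), while DESeq2 gave an adjusted p of 0.017. Alveolar fibroblast-like cells were 1.32% and 1.18% of kept cells in Het and 4.65%, 3.46% and 3.58% in KO. The exact permutation test of that share gave p = 0.10, the smallest that 2 against 3 libraries allow. How far this share moves the sum was not tested.

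Agtr1a was the scarcest of the 5, with 96 to 151 UMIs a library over all kept cells. AT2-like cells held 19 and 13 of these UMIs in Het and 5, 17 and 6 in KO, all in mixed cells. In Het that was more than the pericyte-like cells held. The level of Agtr1a was highest in pericyte-like cells, the mural cells of capillaries, at 96.7 and 73.8 CPM in Het and 65.9, 52.3 and 62.6 CPM in KO. These came from only 16 and 10 UMIs in 17 and 12 Het cells and from 39, 26 and 22 UMIs in 72, 50 and 33 KO cells. Their exact 95% Poisson intervals, which cover counting error only, overlapped (55.3 to 157 and 35.4 to 136 in Het, 34.2 to 94.7 over the KO libraries). Every KO value lay below both Het values, and the groups did not overlap for 31.7% of the 4933 genes that passed the low-count filter in these cells. As first drawn, the class was too small in the Het libraries to be fitted. Its size depended on the clustering: at a Leiden resolution of 2 it held 81 and 54 Het and 130, 90 and 92 KO cells. No fit was run on that larger class, and its Agtr1a levels are not reported here, so the order above holds for the class as first drawn. The 14 pericyte markers in the class as first drawn summed to 12127 and 11887 CPM in Het and 8461 to 9263 CPM in KO, 9 of 14 lower in every KO library, and their part was not tested.

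Far below came mesothelial-like cells at 2.80 to 12.5 CPM and adventitial fibroblast-like cells at 3.66 to 7.92 CPM, which overlapped each other. In adventitial fibroblast-like cells Agtr1a was at 5.29 and 3.66 CPM in Het and 6.45, 7.83 and 7.92 CPM in KO, from 11 to 36 UMIs, without overlap. The log2 change of 0.78 (SE 0.34) did not pass the test (adjusted p = 0.45 in edgeR). Summed over all kept cells Agtr1a was at 1.55 and 1.78 CPM in Het and 3.75, 2.05 and 2.00 CPM in KO (log2 change 0.61, adjusted p = 0.30 in edgeR). In the main clustering, pericyte-like cells made up 0.367% and 0.295% of Het and 2.36%, 1.55% and 0.849% of KO cells.

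Agtr2 was the most confined of the 5, with 84.9% to 90.9% of its UMIs in adventitial fibroblast-like cells, the collagen-rich fibroblasts around vessels and airways. Its level there was 511 and 478 CPM in Het and 505, 578 and 661 CPM in KO, on 1063 to 3005 UMIs a library. The groups overlapped through KO 1. The log2 change was 0.26 (SE 0.12), with an adjusted p of 0.49 in edgeR, in a fit that called 0.288% of 11107 genes. None of the 3 genes tested there (Agtr1a, Agtr2 and Enpep) was called by edgeR, and DESeq2 called 0. In edgeR 1 of them (Agtr1a) had an unadjusted p under 0.05, beside 1169 of all 11107 genes.

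The adventitial class joined 2 clusters, and Agtr2 was high in both, at 496 to 676 CPM by library in the cluster of 1090 cells and 314 to 424 CPM in that of 133 cells. A UMI of Agtr2 was found in 86.0% to 92.7% of the adventitial fibroblast-like cells by library, and in 61.5% to 74.2% after thinning to 3000 UMIs. Cycling smooth muscle-like cells came second, at 90.8 and 172 CPM in Het and 217, 145 and 173 CPM in KO over 12 to 32 cells, and the other smooth muscle-like cells were at 11.7 to 27.5 CPM. Myofibroblast-like cells held 1 Agtr2 UMI in 505 cells.

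The change of Agtr2 in alveolar fibroblast-like minus adventitial fibroblast-like cells was -2.10, in a fit that called 0.232% of genes, and lost its call (-1.23 to -0.74) under the 4 settings named next. In alveolar fibroblast-like cells Agtr2 was at 95.2 and 100.3 CPM in Het and 22.5, 26.9 and 30.7 CPM in KO, with no overlap. The UMIs were 56 and 58 in Het and 32, 35 and 54 in KO. It fell by 1.85 (SE 0.20) on the log2 scale, with an adjusted p of 0.00037 in edgeR. This gap depended on where the border of the class was drawn. With the Leiden resolution at 0.5, the class held 41 and 30 Het cells in place of 61 and 48, and Agtr2 in it was at 2.40 and 30.9 CPM in Het and 8.79, 8.37 and 16.0 CPM in KO. The groups then overlapped and the change was -0.47 with an adjusted p of 0.90, and the resolution of 2, the genes kept in the clustering and doublets kept also ended the call (changes of -1.0006 to -0.45). In the class as first drawn, 15 adventitial markers summed to 3310 and 3415 CPM in Het and 1718 to 2125 CPM in KO, 10 of 15 lower in every KO library, and their part was not tested.

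**Figure D4:**
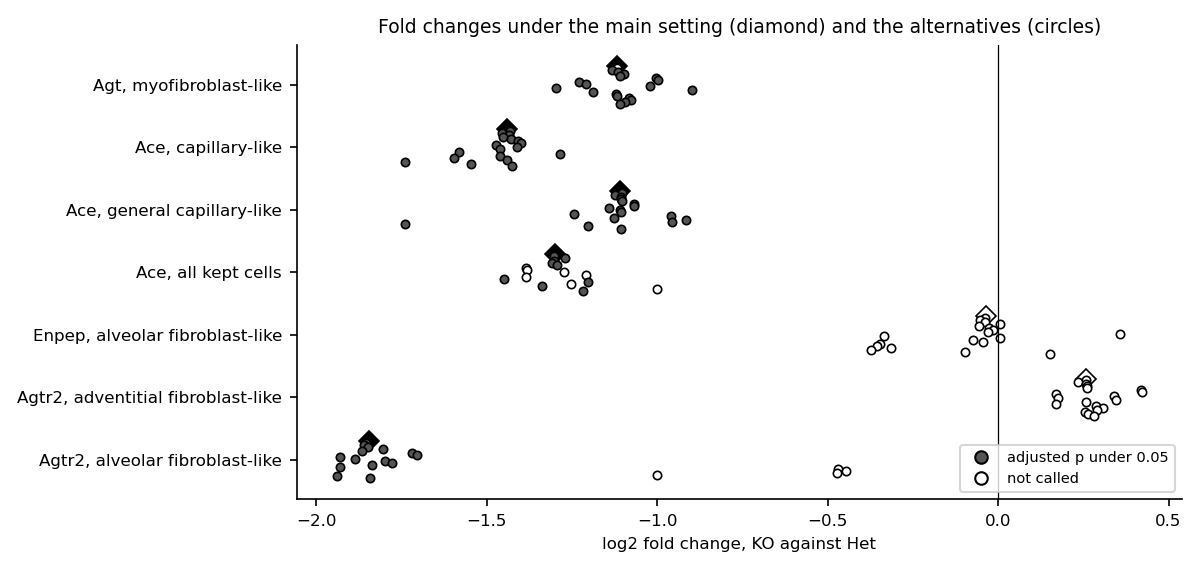
Log2 fold change of KO against Het (x axis) for 7 gene and class pairs, with a diamond for the main setting, a circle for each alternative, and fill where the adjusted p was under 0.05. Agt in myofibroblast-like and Ace in capillary-like cells stay between -1.74 and -0.90, while Agtr2 in alveolar fibroblast-like cells splits into called values near -1.85 and uncalled ones between -1.0006 and -0.45.

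Over all kept cells Agtr2 was at 20.2 and 26.1 CPM in Het and 53.7, 27.9 and 51.2 CPM in KO. The groups did not overlap, and the log2 change of 0.91 (SE 0.30) did not pass the test in edgeR (adjusted p = 0.13), while DESeq2 called it (0.014 as adjusted p). Adventitial fibroblast-like cells were 3.91% and 5.59% of kept cells in Het and 10.3%, 5.32% and 8.47% in KO, which overlap. Agt over all kept cells was at 9.36 and 10.4 CPM in Het and 8.30, 4.81 and 7.22 CPM in KO (log2 change -0.58, adjusted p = 0.18 in edgeR). In these sums none of the 5 genes overlapped between the groups, as was the case for 46.8% of all genes tested. Within classes, groups without overlap made up 28.3% of genes tested in myofibroblast-like, 27.5% in adventitial fibroblast-like, 39.7% in capillary-like, 34.9% in general capillary-like, 29.6% in alveolar fibroblast-like, 25.9% in smooth muscle-like, 50.6% in AT2-like and 29.1% in monocyte-like cells.

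The differences of the change between myofibroblast-like, adventitial fibroblast-like and capillary-like cells were called for none of the 5 genes by edgeR, against 0.253%, 2.12% and 2.59% of all genes in those 3 fits. Of the terms that could be fitted, 0 had an unadjusted p under 0.05. In the scarcer class of each pair the gene had 43 UMIs at most, so these terms show little.

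Profiles over 23 classes were compared by Pearson correlation of the log2 of CPM + 1 among 13208 genes, as a description. A profile used only libraries with at least 20 cells of the class. Those of aerocyte capillary-like and B-lineage-like cells thus came from Het libraries alone. Those of pericyte-like and lymphatic endothelial-like cells came from KO libraries alone. Class and genotype are therefore mixed, also in the highest classes of Ace and Agtr1a. Most other classes share libraries. The genes most like Agt were Zfp536 (0.955), Trim67 (0.923) and Bcas3os2 (0.911). Those most like Ace were Dnah2os (0.912), Exoc3l (0.910) and Phf21b (0.907). Enpep was most like Smim41 (0.931), Brinp1 (0.905) and Vgll3 (0.891), and Agtr1a most like Vtn (0.855), Adamtsl3 (0.852) and Clstn2 (0.841). The profile of Agtr2 was closest to Abca8a (0.955), Dpt (0.954) and Lum (0.952), of which Dpt and Lum encode matrix proteins of fibroblasts. Among the 5 genes themselves, Agtr2 and Enpep were the most alike (0.72), and Agt and Ace had a correlation of -0.01.

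The rest of the pathway was described by 24 genes: renin and its receptor, other peptidases that form or cut angiotensins, other receptors and receptor-associated proteins. Ren1, the renin gene, was at 20 to 118 UMIs a library and highest in mesothelial-like cells, at 41.8 and 5.59 CPM in Het and 1.28, 6.07 and 14.5 CPM in KO, a wide spread within both groups. Agtr1b and Mas1, further receptors, had 8 to 24 and 0 to 2 UMIs a library over all kept cells.

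In capillary-like cells 12 of the 24 were tested and edgeR called 1 higher and 3 lower, beside 11.8% of all genes. The median log2 change of the 12 was -0.07, and that of all genes tested was 0.0045. DESeq2 called 2 of them, Prcp and Ctsd. Prcp, a carboxypeptidase that removes the last residue of angiotensin II, rose by 1.09 (SE 0.12), from a mean of 119 to 252 CPM. Ctsa, Ctsd and Agtrap, the first 2 lysosomal peptidases and the third an interactor of the Agtr1a product, fell by 0.52, 0.66 and 0.73. In general capillary-like cells alone Prcp was at 145 and 126 CPM in Het and 271, 228 and 259 CPM in KO, and it rose by 0.90 (adjusted p = 0.00028 in edgeR). Ctsd also fell there, by 0.50, while Ctsa and Agtrap were not called by edgeR, beside 5.75% of all genes called. DESeq2 called only Prcp there. The capillary-like sums also hold the aerocyte capillary-like cells, 60 and 41 in Het and 1, 1 and 0 in KO. Prcp and Ace thus moved in opposite directions in the same cells.

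Elsewhere few of the 24 genes were called. In myofibroblast-like cells 1 of 10 tested was called lower (Ctsd, by 0.72), beside 1.63% of all genes, and the median of the 10 was -0.31. In adventitial fibroblast-like cells edgeR called 0 of 17, beside 0.288% of all genes. Of the 17, 4 had an unadjusted p under 0.05, beside 1169 of all 11107 genes, and 1, Ren1, was called by DESeq2. In alveolar fibroblast-like cells edgeR called 0 of 12, beside 0.897% of all genes. Of the 12, 3 had an unadjusted p under 0.05, beside 977 of all 9141 genes, and DESeq2 called 0. Over all kept cells 2 of 22 were called lower (Ctsd by 0.49 and Agtrap by 0.36), beside 4.03% of all genes. In AT2-like cells 3 of 15 were called lower, among them the aminopeptidase gene Anpep by 0.77 and Mtus1, which encodes an interactor of the Agtr2 product, by 0.74, beside 18.4% of all genes. Ctsd rose by 0.61 in macrophage-like cells, in which it was the 1 gene called of 12 tested, beside 1.26% of all genes. Ctsd is also in the marker list from which that class was named.

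A further 9 genes are known to rise with angiotensin II signalling. By edgeR 0 of 7 tested were called in myofibroblast-like cells (log2 changes of -0.86 to 0.95), 0 of 8 in adventitial fibroblast-like cells (-0.96 to 0.0077) and 0 of 9 in capillary-like cells (-1.45 to 0.90). At an unadjusted p under 0.05 in edgeR the numbers were 4, 2 and 2, and DESeq2 called 0 in each. Of all genes tested, 1031 of 8268, 1169 of 11107 and 2426 of 9916 had such a p in these 3 fits. In AT2-like cells Ccn1 and Nr4a1 rose, by 1.08 and 0.37, and Tgfb1 fell by 1.40. In AT1-like cells Edn1 and Nr4a1 rose, by 0.98 and 0.71, and Ccn2 fell by 0.85, beside 6.43% of all genes called. Directions differed within the list in both epithelial classes.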

How the data were processed

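Per the labels, lungs of 2 Zswim8+/- and 3 Zswim8-/- embryos gave 1 droplet library each. The authors deposited raw UMI counts for each barcode, made with Cell Ranger 4.0.0 on mm10, per the submitters' processing notes; the annotation is not given in the sources used here. A barcode was retained when 500 genes were detected and mitochondrial UMIs did not exceed 15%. Simulated-doublet scores removed 0.8% per 1000 cells. Cells were clustered (2000 variable genes, 30 principal components, 15 neighbours, Leiden resolution 1) and classes named from marker lists. Clusters that matched no marker list, were of low depth, carried markers of another lineage or lacked their own markers on top stayed unnamed, 28.1% to 39.0% of cells. The largest, 2324 immune cells led by Ear2, Plet1 and Lpl, matched no list and was not of low depth.

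UMIs were summed per library and class (at least 20 cells in every library) and KO compared with Het by edgeR 4.0.16 (quasi-likelihood, TMM, filterByExpr, two-sided, Benjamini-Hochberg adjusted p under 0.05). Differences between classes used the library as a block. The script was tested on simulated counts. The 5 genes, the 33 other pathway and response genes and the markers were chosen with earlier results of these data known. Named were the 5 genes, each other listed gene that was called, and the 3 most similar genes by profile; profiles used libraries with at least 20 cells of a class and left out cycling classes, a change from the plan. The levels of Ren1, Agtr1b and Mas1 were added after their values were seen. Some called genes of the lists are not reported here. Each library is 1 embryo, so p-values measure the spread between 2 and 3 embryos. CPM are counts per 1000000 UMIs of the class. DESeq2 1.42.0, other filters, scalings, sex, replicate number, left-out libraries and other clusterings were tried.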

Additional observations from a re-analysis of the deposited data

Results flagged for a closer look

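The change of Agtr2 in alveolar fibroblast-like minus that in adventitial fibroblast-like cells was -2.10 on the log2 scale (SE 0.21, adjusted p = 6.8e-05 in edgeR with the library as a block, and 0.232% of 10773 genes called) and is a description, since the gene was chosen on such differences and the comparison was added after the data were seen. The call was lost, with values of -0.78, -0.74, -0.78 and -1.23, at resolutions 0.5 and 2, with the genes kept in the clustering and with doublets kept. It held at -2.21 without mixed cells and -2.16 with the stricter cell filter.

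Unnamed clusters, which entered no comparison of classes, carried some of the 5 genes above every red-cell level. Ace was at 184 CPM in a cluster of 210 cycling endothelial cells led by histone genes, with 246 and 313 CPM in Het and 170, 112 and 126 CPM in KO. It was at 116 CPM in 277 shallow endothelial cells (cluster 22) and at 141 CPM in 81 deep cells with both pericyte and endothelial markers (cluster 40). In these 81 cells Agtr1a was at 26.0 CPM. Agtr2 was at 35.3 CPM in 62 cells led by the cartilage collagen genes Col9a3 and Col11a1 (19 UMIs). Enpep was at 31.1 CPM in 55 cells led by cardiac genes such as Myh6 and Myl7 (18 UMIs).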

How the results depend on the processing

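Of the alternatives run, Ace kept its call in all 18 in capillary-like and in general capillary-like cells, and Agt in myofibroblast-like cells kept it in 18 of 19, the other being DESeq2 (-1.12, adjusted p = 0.10). With doublets kept, the capillary-like and general capillary-like sums held the same cells. At resolution 2 the myofibroblast-like class had the same cell numbers and UMIs as in the main setting, so that alternative adds nothing for Agt. Resolution 0.5 gave no capillary-like class. Genes called over all kept cells, 715, came to 2155 with DESeq2, 466 with no low-count filter, 1 with sex as a covariate, 0 in males only (3808 with an unadjusted p under 0.05), 272 without mixed cells and 2 (without Het 1) to 874 (without KO 1) on leaving out 1 library; 27.4% of calls were higher, and 37.0% with library size alone. In myofibroblast-like cells, 135 became 64 with DESeq2, 221 with no filter, 30 with sex, 43 at resolution 0.5, 31 with doublets kept, and 43 to 212 without 1 library. In adventitial fibroblast-like cells, 32 became 50 with DESeq2, 361 with no filter, 53 with the stricter low-count filter, 3 with sex, 239 in males, 8 at resolution 2, 51 with the genes kept in the clustering, 20 with doublets kept, and 1 (without Het 2) to 90 (without KO 2). In capillary-like cells, 1170 became 647 with DESeq2, 292 with sex, and 405 (without Het 1) to 1469. Ace over all kept cells lost its call with sex (-1.39), in males (-1.38) and without mixed cells (-1.0003), and ranged from -1.45 to -1.20 without 1 library. Agtr2 over all kept cells was called by DESeq2 (0.90) and without KO 2 (range 0.73 to 1.15), and Enpep by DESeq2 (0.77). Enpep turned sign in adventitial fibroblast-like cells at resolution 2 (-0.19) and without Het 2 (-0.050, range -0.050 to 0.89), and in alveolar fibroblast-like cells with no filter (0.0057), with the stricter cell filter (0.15) and without 1 library (-0.33 to 0.36). At resolution 0.5, resolution 2, with the genes kept in the clustering and with doublets kept, Agtr2 in alveolar fibroblast-like cells was -0.47, -0.45, -0.47 and -1.0006, and its difference from adventitial fibroblast-like cells -0.78, -0.74, -0.78 and -1.23. The causes were not tested. The replicate number does not pair embryos in the labels, and deviations of same-numbered libraries correlated weakly (-0.14 to 0.14 over all pairs). The fit with the replicate block called 7, 311, 14 and 1302 genes in the 4 sums, and gave Ace over all kept cells -1.27 (adjusted p = 0.10).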
